A study of Homo sapiens with 14 samples.

Results

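L1236 is an established Hodgkin lymphoma cell line, and its chromatin was immunoprecipitated with antibodies against the NF-κB subunits p50, p52, RelA and RelB and sequenced, with 2 libraries per subunit and 6 libraries of input DNA. The p50, RelA and RelB libraries were each made with a single antibody, a goat polyclonal for p50 and rabbit polyclonals for RelA and RelB. The p52 libraries were made with different antibodies, a mouse monoclonal and a rabbit polyclonal. The authors joined the peaks of the 4 subunits into a union of 14865 regions on genome build hg18, with 1 read count, fold enrichment over input and call per subunit from the merged replicates. Regions skewed to p52 are described here that lie more than 10 kb from the closest transcription start site (TSS) and carry a log2 ratio of p50 to p52 reads of -0.7 or less, with 1 read added and each count divided by the sum over all regions. These are 2768 regions, 29.9% of the 9262 distal regions. The other distal regions were called balanced (4710 regions) or, at a ratio of 0.7 or more, skewed to p50 (1784 regions).

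NF-κB subunits bind DNA as homodimers or heterodimers. p50 is made from p105 and p52 from p100. Processing of p100 belongs to the non-canonical pathway driven by the kinase NIK. In L1236 cells the study found less of both p50 and p52 after NIK depletion. RelA and RelB carry transactivation domains, whereas p50 and p52 have none and depend on a Rel partner or on co-activators. p52 with RelB is the prototypic dimer of the non-canonical pathway, and p50 with RelA that of the canonical pathway. Constitutive activity of both pathways is a hallmark of Hodgkin lymphoma cells.

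The regions were chosen by p50 and p52 reads, so reads, calls and enrichments of p50 and p52 in them are a description. All 14865 regions together held 1654137 p50, 1810792 p52, 315151 RelA and 470788 RelB reads. The replicates were merged, so reads and calls have no replicate error and the classes of regions were compared without a test. The intervals after shares are Wilson 95% intervals for the counting error over regions, and regions are not replicates.

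An example from the primer list of the study is the region chr1:210826312-210827640, which lies inside *ATF3*, 21.0 kb downstream of its TSS. *ATF3* encodes a stress-induced transcription factor of the ATF/AP-1 family. The region held 207 p50, 528 p52, 30 RelA and 105 RelB reads and was called for p50, p52 and RelB. The p52 summit at position 210826914 lies between the listed hg18 positions of the qPCR primers, 210826841 and 210826988. The primers are shown because they mark the only tested amplicon of that list inside a distal region skewed to p52, and capitals are not used in them.
ATF3_SP1: tctcagtttcacccaagtcc
ATF3_RP1: tcgtcagagacagaaagtcc

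The log2 ratio of p50 to p52 in the skewed regions had a median of -1.10, which is a 2.14-fold excess of p52, and reached -4.61 at the lowest. In 1668 regions it was -1 or less and in 145 regions -2 or less. The median region had 39 p50 and 95 p52 reads, 12 RelA reads and 17 RelB reads. The counting interval of the ratio uses the same reads that chose the regions, so its position is a description and no check of the skew. It lay entirely under 0 in 2721 regions (98.3%) and entirely under -0.7 in 1106 regions (40.0%). The threshold therefore cuts a continuous distribution, as the plot of reads and ratios shows. Just inside the threshold, 2 regions at a ratio of -0.70 held 85 p50 and 152 p52 reads each. Just outside, 2 regions at the same rounded ratio held 44 p50 and 79 p52 reads each. The third region on either side had few p52 reads relative to RelA, with 120 p52 and 122 RelA reads inside and 31 p52 and 31 RelA reads outside, and both were called for RelB alone.

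**Figure D1:**
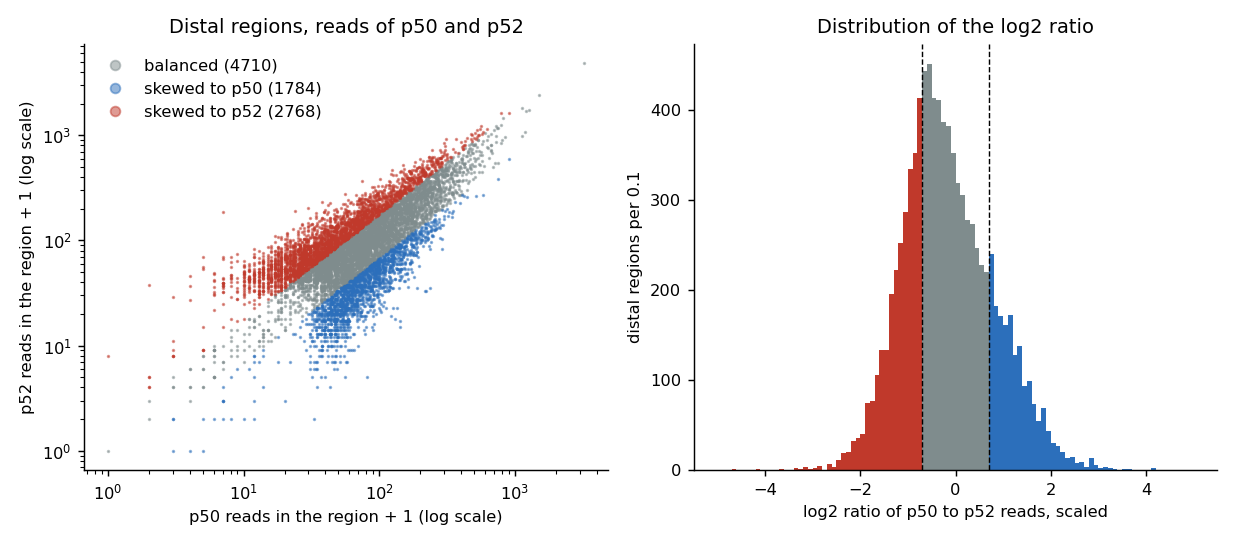
Left, p50 and p52 reads (plus 1, log scales) of each distal region, colored by class; right, the number of distal regions per 0.1 of the log2 ratio, with the thresholds of -0.7 and 0.7 as dashed lines. The 2768 regions skewed to p52 form the lower flank of a single peak of the distribution and have no gap to the 4710 balanced regions.

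The most extreme ratios belonged to regions without a p50 call. Among regions with at least 50 p52 reads the lowest ratio was found at chr6:149740700-149741894, inside a gene, with 6 p50, 186 p52, 80 RelA and 21 RelB reads. The next 4 had 4 to 6 p50 reads and 52 to 69 p52 reads, and all 5 were called for p52 alone. The 5 regions with the most p52 reads had ratios between -0.98 and -0.71, above the median of the skewed regions. The region with the most, chr7:55567890-55571249, held 908 p50, 1622 p52, 167 RelA and 383 RelB reads at a ratio of -0.71. A region with almost as many p52 reads, chr11:115300525-115301945, lay 420 kb from the closest TSS and held 793 p50, 1617 p52, 85 RelA and 329 RelB reads. It was called for all 4 subunits, with a fold enrichment over input of 60.7 for p50, 76.2 for p52 and 10.9 for RelA. Another of the 5 lay inside *NFIX*, a nuclear factor I gene, with 617 p50 and 1133 p52 reads, 60 RelA reads and 252 RelB reads.

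Of the regions skewed to p52, 2665 were called for p52 (96.3%), against 73.3% of all and 78.3% of distal regions. For p50 1017 were called (36.7%), against 73.8% of all and 67.2% of distal regions. The most frequent combination was p52 alone, with 1489 regions or 53.8% (51.9% to 55.6%), against 24.8% of all distal and 19.8% of all regions. p50 and p52 without a Rel protein were called in 438 regions, or 15.8% against 32.0% of all distal regions. p50, p52 and RelB were called in 520, or 18.8% against 16.7%, and p52 and RelB alone in 149, or 5.38% against 2.38%. All 4 subunits were called in 56 regions, which with 2.02% was near the 1.98% of all distal regions. Since these classes include p50 and p52 calls, their shares are a description of the choice of regions. In the 1017 regions called for both p50 and p52, the fold enrichment of p52 exceeded that of p50 in 1012. The summits of p50 and p52 lay at a median distance of 14 bp in these regions, within 250 bp in 97.1% of them. The median distance was 10 bp in balanced and 6 bp in p50-skewed regions with both calls. Within 250 bp were 96.1% and 98.3% of these. In most regions with both calls, a ratio skewed to p52 thus did not go along with separate summits. Regions without a p50 call could not be compared in this way.

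Signal values are the only measure given per replicate. Across the 2665 regions called for p52, Spearman's rho between the signal values of the replicates, and so of the different p52 antibodies, was 0.817. It was 0.784 in the balanced distal regions called for p52. The corresponding rho in the skewed regions was 0.760 for p50 (1017 regions), 0.408 for RelB (834 regions) and -0.116 for RelA (76 regions). These correlations run across regions selected for reproducible peaks.

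RelB, the partner of p52 in the prototypic non-canonical dimer, was called in 834 of the regions skewed to p52, or 30.1% (28.4% to 31.9%). The background was 26.8% of all regions and 27.1% of all distal regions. The share was 32.5% (31.2% to 33.9%) in balanced distal regions and 8.24% (7.05% to 9.61%) in distal regions skewed to p50. The skewed and balanced regions thus had similar shares, and both stood far above the regions skewed to p50. RelB reads per kb showed the same order, with a median of 22.3 in regions skewed to p52, 23.5 in balanced regions and 13.1 in regions skewed to p50. In the regions with both calls, the p52 and RelB summits lay a median of 18 bp apart and within 250 bp in 94.8%.

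The presence of a p50 call separated the skewed regions further. RelB was called in 576 of the 1017 regions with p50 and p52, which is 56.6% (53.6% to 59.7%), against 36.7% of all distal and 37.8% of all regions with both calls. This share was 34.5% (32.9% to 36.2%) in balanced and 11.1% (8.69% to 14.1%) in p50-skewed distal regions with the same calls. Without a p50 call, RelB was called in 158 of 1648 p52 regions, or 9.59% (8.26% to 11.1%), and in 9.75% (7.98% to 11.9%) of the balanced ones. This was the background, with 9.64% of all distal and 9.60% of all regions with these calls. Median RelB reads per kb were 34.9 in the skewed regions with p50 and p52 and 16.1 in those with p52 but without p50. Median p52 reads per kb differed as well, with 208 in the former and 102 in the latter. Among regions called for p50 and p52 they were 128 in balanced and 78.6 in p50-skewed regions. The rule and the calls together set this order of p52 reads, so the RelB shares above are not compared at equal p52 reads.

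Along the ratio, the share of RelB calls took a different course in all distal regions and in those called for p50 and p52. In the latter it was 64.6% (52.5% to 75.1%, 65 regions) at ratios between -2 and -1.5, 58.4% between -1.5 and -1 and 54.6% between -1 and -0.7. On the balanced side it was 47.8%, 36.7%, 27.4% and 20.5% in successive steps of 0.35, and it was 10.8% above a ratio of 1. The lowest bin, at -2 or less, held only 3 such regions. Over all distal regions, the share was highest at 38.9% between -0.7 and -0.35, and within the skewed regions it was 37.2%, 30.3%, 19.0% and 8.28% towards lower ratios. In that same order the median p50 reads per kb were 66.1, 49.8, 30.5 and 18.5, whereas the median p52 reads per kb were 131, 129, 114 and 108.

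**Figure D2:**
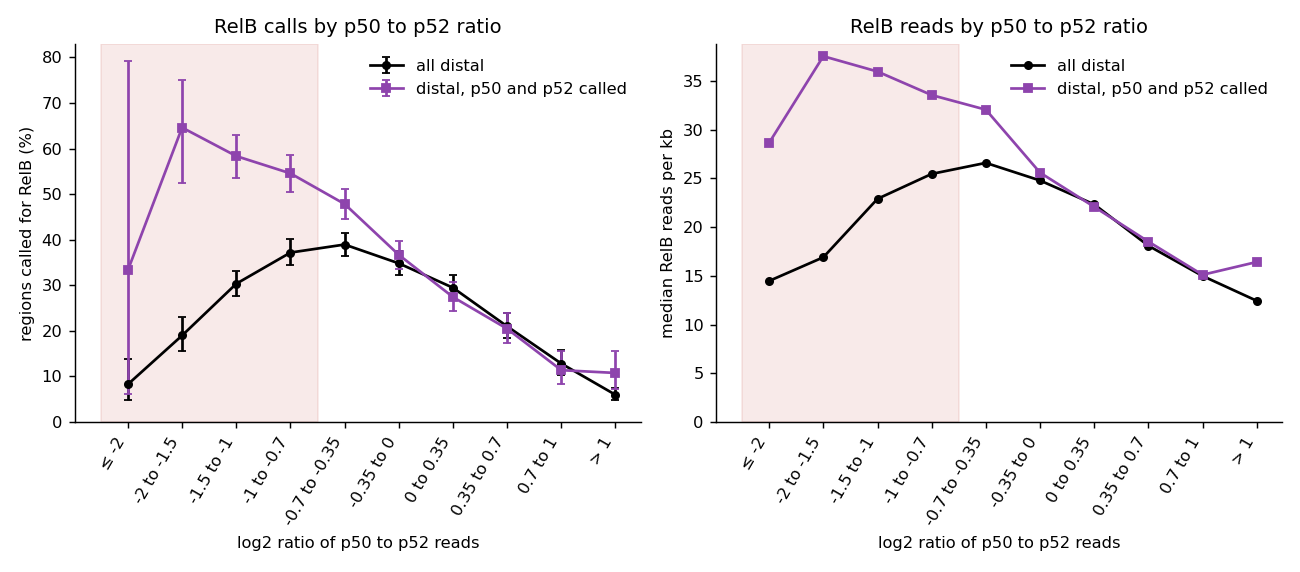
Share of distal regions called for RelB with Wilson 95% intervals (left) and median RelB reads per kb (right) in bins of the log2 ratio of p50 to p52 reads, for all distal regions (black) and those called for p50 and p52 (purple); the shaded bins are skewed to p52. The purple share is 64.6% between -2 and -1.5 and 10.8% above 1, while the black share peaks at 38.9% just outside the shaded bins.

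The comparison depended on which reads were matched. The rule used both p50 and p52 reads, so neither matching is free of it. At equal p50 reads the skewed regions hold more p52 reads by choice, and at equal p52 reads fewer p50 reads. Among distal regions called for p50 and p52 and with p50 reads per kb in the highest quartile of these regions, RelB was called in 85.2% (78.7% to 90.0%, 149 regions) of the skewed and 55.0% (51.5% to 58.4%) of the balanced regions. In the lowest p50 quartile the shares were 43.7% and 20.1%. With quartiles of p52 reads per kb, the shares were closer, at 68.3% (64.2% to 72.1%) and 65.3% (61.5% to 68.8%) in the highest quartile and 48.5% (43.2% to 53.8%) and 40.3% (36.9% to 43.7%) in the next. In the second quartile they were 35.4% and 25.4%, and the lowest held 25 skewed regions. Over all distal regions, irrespective of calls, the skewed regions had the lower share in each quartile of p52 reads, with 52.2% against 56.8% in the highest and 19.1% against 25.0% in the next. In the same set they had the higher share in the upper 3 quartiles of p50 reads, with 76.8% against 48.2% in the highest, and the lower share in the lowest, with 16.0% against 37.6%. By the sum of p50 and p52 reads the skewed share was higher in the upper 2 quartiles, with 62.7% against 52.9% and 31.9% against 23.7%, and lower in the other 2. Every union region needs a call for at least 1 subunit, so a region with few p50 and p52 reads could enter the union by a RelB or RelA call alone.

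RelA, the partner of p50 in the prototypic canonical dimer, was called in 76 regions skewed to p52, or 2.75% (2.20% to 3.42%). The background was 3.31% of all and 3.08% of distal regions, and the share was 4.01% (3.49% to 4.61%) in balanced distal regions. Median RelA reads per kb were 15.1 in skewed and 15.8 in balanced regions. With p50 and p52 calls, RelA was called in 59 of 1017 skewed regions, or 5.80% (4.52% to 7.41%). That share was 3.95% in balanced, 1.92% in p50-skewed and 4.12% in all distal regions. With p52 but without p50, RelA was called in 10 of 1648 skewed regions (0.61%), against 1.79% of balanced and 1.02% of all distal regions. Of the 76 regions, 69 were also called for RelB. The background was 255 of 285 RelA regions among all distal and 437 of 492 among all regions, with 173 of 189 in balanced regions. High background, as defined below, was found in 6 of the 76. The highest RelA density among skewed regions with all 4 calls was 59.8 reads per kb, in the region on chromosome 11 with 1617 p52 reads.

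A subset of the skewed regions had other read patterns and is given apart. In 126 of them (4.55%) RelA reads were at least as many as p50 reads, with a median of 13 p50, 54.5 p52, 19 RelA and 22 RelB reads. RelB was called in 74 of the 126, or 58.7%. The 206 balanced regions with this pattern (4.37%) were called for RelB in 96.6%. Without these regions RelB was called in 28.8% of the skewed and 29.6% of the balanced distal regions. None of them was among the 1017 skewed regions with p50 and p52 calls, where the share of RelB therefore stayed at 56.6%. Some of them lay close together. On chromosome 4, 5 skewed regions between 48843668 and 49354966 held 45 to 95 p50, 101 to 199 p52, 91 to 201 RelA and 62 to 173 RelB reads, and all 5 were called for RelB and none for p50. On chromosome 2, 5 skewed regions between 91636283 and 91687552 held 27 to 141 p50, 53 to 256 p52 and 44 to 227 RelA reads, again with 5 RelB calls and no p50 call. Of the 5 skewed regions with the most RelB reads per kb, 3 were of this kind, among them chr10:41699528-41701116 with 274 p50, 493 p52, 461 RelA and 513 RelB reads. The fold enrichment in that region was 3.32 for p52, 2.98 for RelA and 8.18 for RelB. All 3 were also regions of high background, as defined in the next paragraph. The other 2 were the chromosome 11 region above and one 18.8 kb upstream of the TSS of *SH2D2A*, a gene for a lymphocyte adaptor protein. The latter lay inside another gene and held 410 p50, 745 p52, 63 RelA and 248 RelB reads.

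No p52 call was made in 103 skewed regions, of which 96 were called for RelB alone. RelA reads were at least as many as p50 reads in 64 of the 103, which are thus also among the 126 regions above. All 103 regions together held a median of 18 p50, 43 p52, 14 RelA and 27 RelB reads. High background, a pileup more than 5 times larger relative to the fold enrichment than the median of the subunit, was found in 8 skewed regions. Without regions of high background RelB was called in 29.9% of the skewed and 31.8% of the balanced regions.

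The position of the regions was not used by the rule apart from the 10 kb limit. Of the skewed regions, 48.4% (46.5% to 50.2%) lay inside a gene, against 47.5% (46.1% to 48.9%) of the balanced and 43.3% (41.0% to 45.6%) of the p50-skewed regions. The median distance to the closest TSS was 58.3 kb in the skewed regions, 48.0 kb in the balanced and 47.9 kb in the p50-skewed regions. Of the distal regions 10 to 20 kb from a TSS, 25.0% (23.0% to 27.2%) were skewed to p52, and of those more than 500 kb away 39.6% (33.5% to 46.1%). The shares in between were 28.1%, 31.7%, 31.0% and 35.7%. The share skewed to p50 was 20.8% nearest to the TSS and 15.4% farthest from it. Within 10 kb of a TSS, 609 of 5545 regions (11.0%) were at or under -0.7.

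By chromosome, the share of distal regions skewed to p52 was between 10.5% and 43.3%. It was lowest on chromosome 19 with 19 of 181 regions (6.82% to 15.8%) and chromosome 22 with 18.5% (12.9% to 25.9%). It was highest on chromosome X with 100 of 231 regions (37.1% to 49.7%), followed by chromosome 3 with 36.9% and chromosome 18 with 36.7%. The intervals of chromosomes 19 and X lay apart from each other and from the 29.9% of all distal regions. On chromosome 19, 28.5% of all union regions were distal, against 64.9% on chromosome X, and the median ratio of the distal regions was 0.36 and -0.52. Gene density, base composition and copy number were not examined here.

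**Figure D3:**
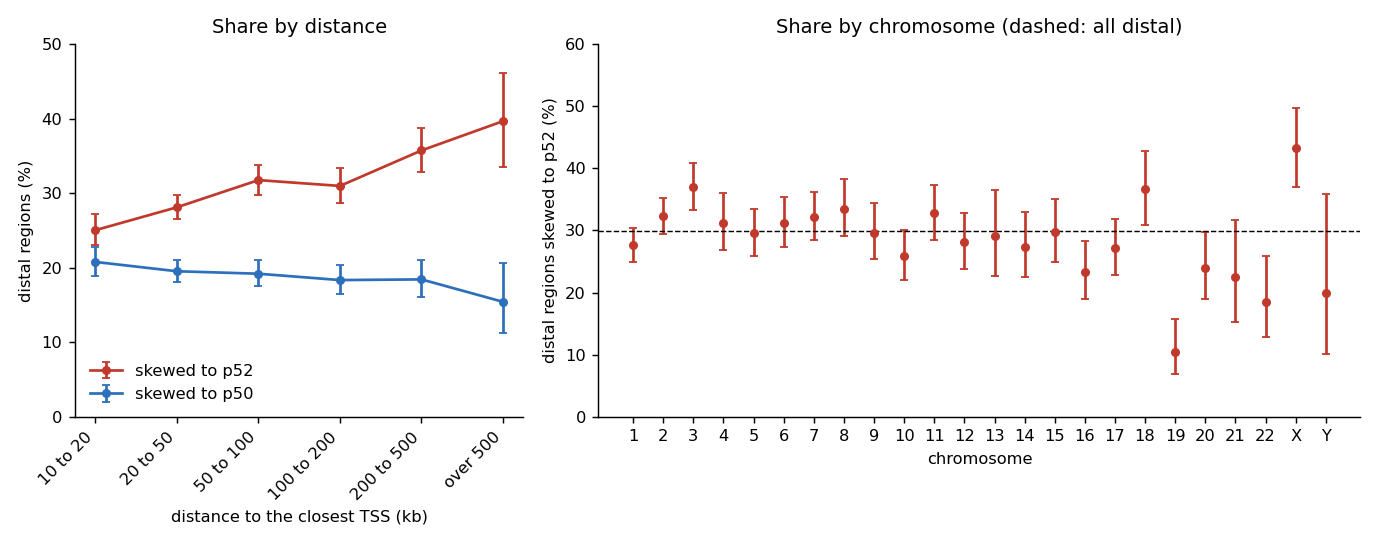
Left, share of distal regions skewed to p52 (red) or to p50 (blue) by distance to the closest TSS in kb; right, share skewed to p52 on each chromosome, with the 29.9% of all distal regions dashed. Bars are Wilson 95% intervals, and the red share is 25.0% in the nearest and 39.6% in the farthest distance class, with chromosome 19 lowest and X highest.

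Regions skewed to p52 lay near each other. Each pair of adjacent distal regions was counted from both ends, so the Wilson intervals for adjacent regions are too narrow. Where the adjacent distal region was up to 5 kb away, it was itself skewed to p52 in 47.3% (44.3% to 50.2%) of cases for skewed, 27.7% (25.7% to 29.7%) for balanced and 17.5% (13.6% to 22.2%) for p50-skewed regions. At a gap of 5 to 20 kb the shares were 44.6%, 26.0% and 17.6%, and at 20 to 50 kb 37.7%, 28.9% and 21.7%. At 50 to 100 kb the share next to skewed regions was 28.4%, near the 29.9% of all distal regions. A distal region within 20 kb was found for 52.6% of the skewed, 52.7% of the balanced and 30.8% of the p50-skewed regions. The regions skewed to p52 were thus in groups of distal regions about as often as the balanced ones, and more often than the p50-skewed ones. Spearman's rho of the ratio between adjacent regions was 0.30 up to 5 kb and 0.09 at 50 to 100 kb. The ratio at the TSS went the same way in part. Of 830 regions within 10 kb of a TSS of the genes closest to skewed regions, 17.8% (15.4% to 20.6%) were at or under -0.7, against 11.0% (10.2% to 11.8%) of all regions within 10 kb. Their median ratio was 0.25, compared with 0.59 over all. The same share was 14.6% for the genes closest to balanced and 11.8% for those closest to p50-skewed regions.

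**Figure D4:**
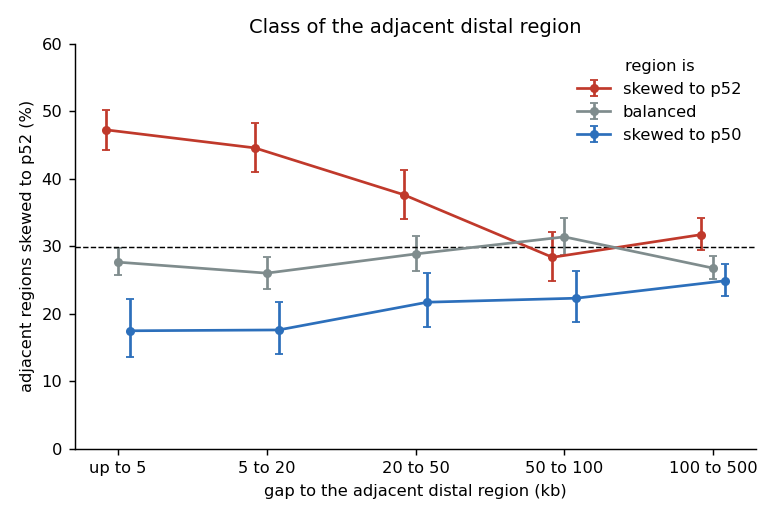
Share of adjacent distal regions skewed to p52 by the gap in kb, for regions that are themselves skewed to p52 (red), balanced (grey) or skewed to p50 (blue), with Wilson 95% intervals and the 29.9% of all distal regions dashed. Each pair was counted from both ends, so the intervals are too narrow. The red share is 47.3% up to 5 kb and 28.4% at 50 to 100 kb.

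The skewed regions had 1839 different genes as the closest TSS, of which 204 had at least 3 and 39 at least 5 such regions. Symbols could be assigned to 299 of these genes. The closest TSS is an assignment by distance, and it does not show which gene a region acts on. Some regions lay inside or nearer to another gene. For the RelB calls at single genes below, the background is 30.1% of all regions skewed to p52. Genes with most skewed regions were *FOXP1* and *ETS1* with 10 each and *PTGER4* with 9, followed by *BHLHE40*, *TNFAIP3*, *IL6*, *CD44* and ENSG00000177565 with 8 each.

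*FOXP1* encodes a forkhead transcription factor of B cell development. Skewed to p52 were 10 of its 16 distal regions, 5 were balanced and 1 was skewed to p50. Of the 10 regions, 9 lay inside the gene. The region with the most reads, chr3:71214969-71216410, lay 499 kb downstream of the TSS and held 190 p50, 488 p52, 24 RelA and 30 RelB reads. A region nearer to the TSS, chr3:71218839-71220141, held 34 p50, 146 p52, 15 RelA and 13 RelB reads, at the lowest ratio of the locus, -1.94. The next, chr3:71240937-71242447, held 103 p50, 279 p52, 26 RelA and 38 RelB reads. At chr3:71560301-71561106 there were 75 p50, 194 p52, 19 RelA and 28 RelB reads, and at chr3:71529724-71530704 there were 39 p50, 128 p52, 11 RelA and 9 RelB reads. The other 5 regions were called for p52 alone, with 33 to 75 p52 and 9 to 33 p50 reads. None of the 10 was called for RelB or RelA, against 30.1% and 2.75% of all skewed regions. RelB reads in the 10 regions were between 7 and 38. The ratios of the regions within 10 kb of the *FOXP1* TSS were -1.85 and 0.66, so that 1 of the 2 was skewed as well.

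*ETS1* encodes an ETS family transcription factor of lymphocytes. Of its 20 distal regions 10 were skewed to p52 and 10 balanced. The skewed regions lay 56.9 to 362 kb downstream of the TSS, 4 of them inside the gene. The strongest were chr11:127857275-127859194 with 361 p50, 684 p52, 37 RelA and 72 RelB reads and chr11:127693591-127694562 with 263 p50, 580 p52, 31 RelA and 151 RelB reads. The latter was called for all 4 subunits. RelB was called at 3 more, chr11:127871302-127873281 (79 RelB reads), chr11:127585162-127586020 (64 RelB reads) and chr11:127787868-127788885 (60 RelB reads). The last of these held 38 p50 and 118 p52 reads and was called for p52 and RelB without p50. The lowest ratio at *ETS1* was -2.39, with 14 p50 and 85 p52 reads at chr11:127664117-127664822. The remaining 4 regions held 33 to 75 p50 and 79 to 139 p52 reads and were called for p52 alone in 3 cases and for p50 and p52 in the other.

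*PTGER4* encodes the prostaglandin E2 receptor EP4. All of its 9 skewed regions lay upstream, outside the gene, at 182 to 455 kb from the TSS, and they were 9 of 17 distal regions. The most p52 reads were found at chr5:40515688-40516813, with 93 p50, 272 p52, 24 RelA and 20 RelB reads. The regions chr5:40312632-40313845 and chr5:40314062-40315164 are adjacent and held 256 and 192 p52 reads and 127 and 96 p50 reads. RelB was called at chr5:40259678-40260561, with 84 p50, 235 p52 and 73 RelB reads, and at chr5:40526147-40527112, with 77 p50, 206 p52 and 48 RelB reads. The other 4 held 43 to 121 p52 and 14 to 54 p50 reads. Of the 3 regions within 10 kb of the TSS the median ratio was -0.91.

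The genes with 8 skewed regions differed in RelB calls, though 8 regions are few to set against the 30.1% of all skewed regions. *BHLHE40*, a gene for a transcriptional repressor, had 5 RelB calls among its 8 regions. At chr3:4905237-4906744, 89.5 kb upstream, there were 118 p50, 360 p52, 27 RelA and 68 RelB reads, and at chr3:4866141-4867395 there were 70 p50, 186 p52, 30 RelA and 79 RelB reads. *TNFAIP3*, the gene for A20, a ubiquitin-editing inhibitor of NF-κB signaling, had 1 RelB call, with 22 RelB reads at chr6:138212276-138213067, 17.2 kb upstream. The 8 *TNFAIP3* regions held 18 to 97 p50 and 50 to 211 p52 reads. Upstream of *IL6*, a cytokine gene, 8 of 12 distal regions were skewed, with 375 p52 and 167 p50 reads in the strongest, 62.8 kb from the TSS, and 2 RelB calls. At *CD44*, the gene for a hyaluronan receptor, 8 of 9 distal regions were skewed, and 3 of them were called for RelB.

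**Figure D5:**
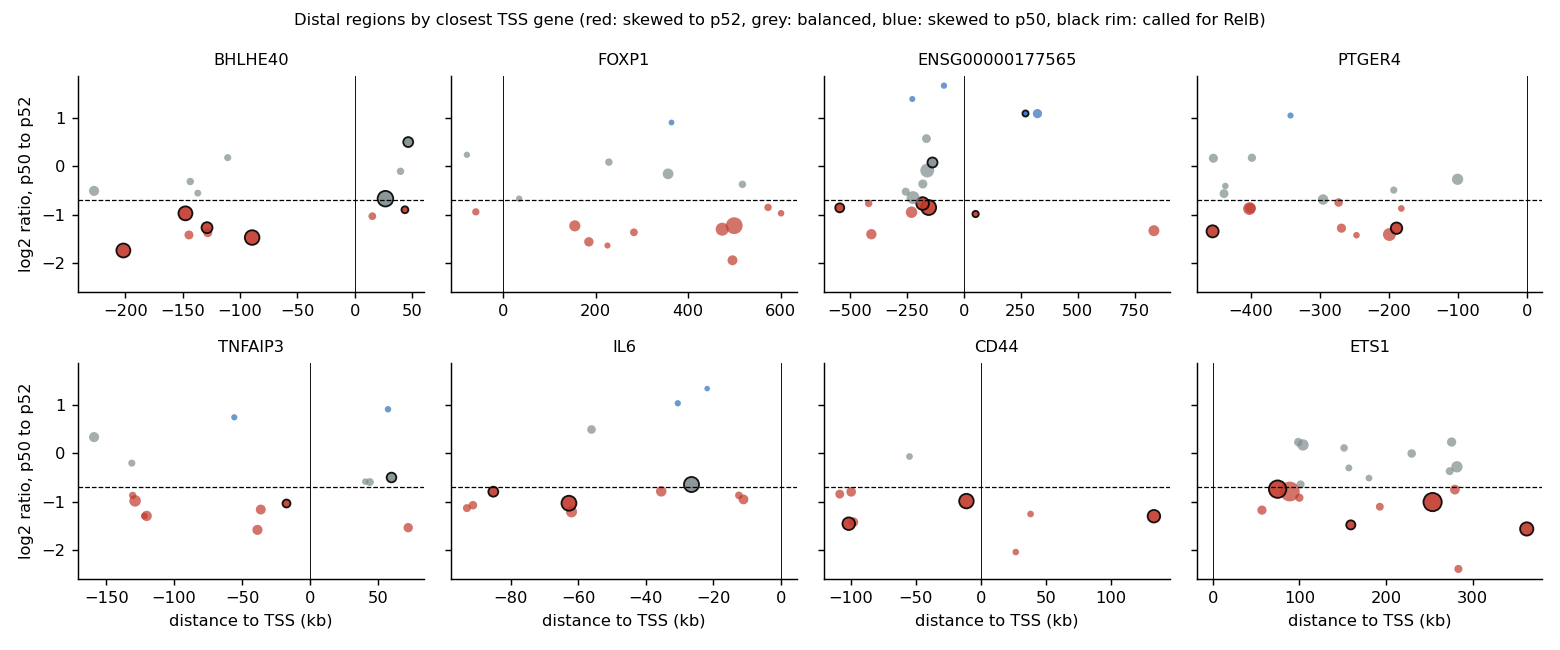
Distal regions of the 8 genes that are the closest TSS of most regions skewed to p52, by distance to the TSS in kb (negative is upstream) and log2 ratio of p50 to p52 reads; point area increases with p52 reads and the dashed line is -0.7. Red regions are skewed to p52, grey balanced and blue skewed to p50, and black rims mark RelB calls, of which *FOXP1* has 0 and *BHLHE40* 5 among the red regions. RelB was called in 30.1% of all regions skewed to p52.

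For functional groups of genes, the distal regions whose closest gene or closest TSS belongs to the group were counted, together with those skewed to p52 among them. Genes without an assigned symbol could not be included. B cell transcription factors had 23 skewed regions among 50 distal regions (46.0%), at *ETS1*, *FOXP1* and *PAX5*, the B cell commitment factor. Over all distal regions the share was 29.9%, and the list was drawn up with the regions at *FOXP1* and *ETS1* already known. Chemokines and chemokine receptors had 10 of 15, all at receptor genes. At *CXCR5*, a homing receptor of B cells, the region chr11:118217166-118218187 lay 41.6 kb upstream and held 302 p50, 783 p52, 39 RelA and 61 RelB reads. A region 40.4 kb downstream of the TSS of *CCR4*, though nearer to another gene, held 397 p50, 867 p52, 52 RelA and 122 RelB reads. It was called for all 4 subunits. *CXCR4* had 6 skewed among 9 distal regions, with 92 p50, 257 p52, 45 RelA and 70 RelB reads in the strongest. Adhesion and costimulation genes had 10 of 14, at *CD44* and at *CD86*, a ligand of CD28, where 85 p50, 263 p52, 29 RelA and 34 RelB reads were found 47.9 kb downstream of the TSS.

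Apoptosis regulators had 9 skewed among 21 distal regions (42.9%), at *BCL2*, *BCL2L1*, *BCL2L11*, *BIRC3* and *CFLAR*. RelB was called in 5 of the 9, against 30.1% of all regions skewed to p52. The widest of the 9, chr18:58975730-58980518 inside the anti-apoptotic gene *BCL2*, spanned 4789 bp with 528 p50, 960 p52, 107 RelA and 176 RelB reads. Its p50 summit was at position 58976088 and its p52 summit at 58978048, so these counts cover separate summits. Inside *CFLAR*, which encodes the caspase-8 inhibitor c-FLIP, 173 p50, 384 p52, 39 RelA and 49 RelB reads were found 12.7 kb downstream of the TSS. Inside *BCL2L1*, the gene for BCL-xL, 177 p50, 352 p52, 22 RelA and 91 RelB reads lay 37.6 kb downstream. The apoptosis regions were thus of both kinds, anti-apoptotic genes and *BCL2L11*, which encodes the pro-apoptotic protein BIM.

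Signaling regulators of NF-κB had 9 skewed among 19 distal regions, 8 of them at *TNFAIP3* and 1 at *BIRC3*. Genes of NF-κB subunits and IκB proteins had 2 of 10. The one at *REL* lay 33.0 kb upstream and held 172 p50, 380 p52, 19 RelA and 64 RelB reads, and the one assigned to *NFKB1* held 23 p50, 55 p52, 12 RelA and 11 RelB reads. Among AP-1 and ATF factors 4 of 17 were skewed, at *ATF3* and *BATF*, where chr14:75032861-75034098 was called for all 4 subunits with 244 p50, 438 p52, 34 RelA and 51 RelB reads. *PRDM1*, the gene for the plasma cell factor BLIMP-1, had 6 skewed among 7 distal regions, with ratios between -2.87 and -0.90 and p52 reads between 38 and 164. Cytokines and interleukin receptors had 12 of 29, of which 8 were at *IL6*. *GATA3*, a T cell factor, had all 4 skewed regions of its group of 23 distal regions. No skewed region was found for the JAK-STAT and SOCS genes with 3 distal regions, for the TNF and TNF receptor family with 2, or for cell cycle regulators with 0. Of these groups only 4 of 16, 4 of 15 and 1 of 8 genes could be searched. The lack of skewed regions therefore says nothing about most of their genes.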

How the data were processed

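Per the labels, 8 ChIP and 6 input libraries of L1236 cells were made. The authors aligned the reads to hg18 (Bowtie), kept unique ones, removed PCR duplicates with SAMtools, reduced libraries at random to 10000000 reads, ran MACS on each replicate, compared replicates by IDR and called peaks on merged replicates. The deposited counts are whole reads per union region from merged replicates. Their relation to the random reduction is not stated. The deposited fold enrichment is a ratio to input at the summit, and the deposited pileup is a signal, the fragment coverage there. The deposited FDR is a q-value, and the deposited IDR is a fraction, for which the authors give a threshold of 0.05, though every IDR in the table is below 0.01. The deposited signal values are a score per replicate, whose order and scale are not given. Distances are the authors', from Ensembl version 54.

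Here ratios were formed from counts with 1 read added, and shares received Wilson 95% intervals. No test was made, since each subunit has 1 merged value. The depth behind a region is its number of reads, and 121 skewed regions had fewer than 50 p50 and p52 reads together, so their ratios are the least precise. Intervals cover counting error only. The regions and gene lists were chosen with earlier results of these data known. Symbols came from identifier and symbol pairs in supplementary tables of the study, partly readable, which name mainly genes of interest there, and 523 skewed regions (18.9%) have one. Named regions followed a rule: the 5 lowest ratios with at least 50 p52 reads, the 5 with most p52 reads, the 5 with most RelB reads per kb, the 3 with most RelA reads per kb among those called for all 4, 3 on each side of the threshold, regions with an amplicon, genes with most skewed regions (6, extended to 8 by ties), and the 3 regions with most p52 reads of each gene list. Some further regions of these genes were chosen after their values were seen. The 58 regions without a TSS distance were left out. Ratio, classes and intervals were tested on simulated data. Calculations ran in Python 3.11.15 with pandas 2.3.3, numpy 2.4.6, scipy 1.17.1 and matplotlib 3.10.9. Alternatives were other thresholds, scaling, added reads, distance limits, call criteria and the removal of regions.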

Additional observations from a re-analysis of the deposited data

How the results depend on the processing

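The number of distal regions skewed to p52 was 1668 with a threshold of -1 and 1532 beyond 50 kb of a TSS, and stayed within 1.5 times of 2768 under the other alternatives. With the threshold of -1, RelB was called in 25.5%, RelA in 1.68% and p52 alone in 62.9% of the regions, and the differences in median log2 reads per kb from balanced regions were -0.12 for RelB and -0.11 for RelA, compared with -0.04 and -0.05. Without division by width these differences were -0.22 and -0.21, the skewed regions being narrower (median 781 bp against 836 bp). A fold enrichment of at least 5 gave 28.1% for RelB and 2.02% for RelA. With RelB counted as shared only where its summit lay within 250 bp of that of p52, among p52 regions, the share was 26.1%. An IDR below 0.001, a setting added once the data had been seen, gave 16.4% for RelB, 1.12% for RelA and 41.7% for p52 alone, as fewer calls of each subunit remained. Leaving out regions with at least as many RelA as p50 reads was added at the same point and moved no value out of its interval. Beyond 50 kb of a TSS 44.3% lay inside a gene. The cause was not tested for the others. Of 58 values, 42 stayed within the main interval or, for counts, within 1.5 times, and none changed sign. The planned IDR below 0.01 removed no call. The window around κB motifs was not run, since the genome sequence of hg18 was not used here. Leaving out a replicate could not be done because replicates are merged. No paired analysis was possible because each subunit has 1 merged value and no result comes from a test. RelA calls, 76 in skewed regions, limit what can be said of RelA at this depth.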

Other observations

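Some genes without an assigned symbol had skewed regions at every distal region. For ENSG00000090104 on chromosome 1 this held for 7 of 7, between 77.2 kb upstream and 25.1 kb downstream of the TSS, with 13 to 301 p50 and 38 to 658 p52 reads and 3 RelB calls. At *TRIB2*, which encodes a pseudokinase, 6 of 7 distal regions were skewed to p52, and 2 of the 6 were called for RelB. These genes were singled out after their values were seen.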
